A study of Mus musculus with 16 samples.

Results

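Collagen genes were the 44 protein-coding genes of the count table whose symbol is Col, a number, a and a second number, with counts in at least 4 libraries, out of 52636 genes in the table. Every protein-coding symbol of this form met the rule, 42 of the 44 had counts in every library, and the other 2 had counts in 15 of 16. RNA was sequenced from islets of 12 week old male C57BL/6JRj mice (the study's methods name C57BL/6NRj), held for 10 days in medium with human serum. The 4 conditions were control islets without addition, islets with IL-1β at 50 pg/mL, islets with sodium butyrate at 0.2 mM, and islets with IL-1β and butyrate together, with 4 libraries each from 500 islets pooled from several mice. Pancreatic islets hold the cells that make insulin, glucagon and other hormones. IL-1β is a cytokine of inflammation, whereas butyrate, a fatty acid, is released by gut bacteria. The study presents the replicates as independent experiments with pooled islets, so a replicate is not a mouse. The mice carried no transgene or deletion according to the labels, and the comparisons address what IL-1β does to collagen transcripts and what butyrate does with and without it.

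Collagens are matrix proteins whose chains wind together into a triple helix. Fibrillar collagens form the cables of connective tissue, type IV collagen forms the sheet of basement membranes, and type VI collagen forms beaded filaments between both. FACIT collagens (fibril-associated collagens with interrupted triple helices) coat fibrils, multiplexins sit in basement membranes, and transmembrane collagens are held in the cell surface. In the pancreas, collagen IV lies in the basement membrane around islet capillaries, and fibroblasts and stellate cells are the usual source of fibrillar collagen.

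The rule gave 11 fibrillar, 9 FACIT, 6 type IV, 6 type VI, 4 transmembrane, 3 short chain network, 2 multiplexin and 2 other genes, and the anchoring fibril gene Col7a1. Libraries held 18635943 to 25955943 counts, of which 5308 to 9211 were on collagen genes, or 0.0272% to 0.0360%. Levels are given as CPM, counts scaled to a common library size by the TMM method of edgeR, and as CPM per kb of exon where genes are compared with each other. Exon length is that of all annotated exons of a gene merged, so it can exceed the length of the transcripts present. The islet label was checked on 6 beta cell markers, the insulin genes Ins1 and Ins2 among them, whose summed level was at least 136587 CPM in each library. Fibroblast and stellate cell markers were low, with a summed level over 10 genes of 7.05 to 13.4 CPM in control, 3.52 to 7.41 with IL-1β, 5.24 to 10.5 with IL-1β and butyrate, and 9.86 to 13.5 with butyrate. Fewer cells of a type and less RNA per cell cannot be told apart in such bulk samples.

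A gene was tested if it passed edgeR's filter on low counts, which left 18587 genes and 41 collagen genes. The genes not tested were Col24a1, Col2a1 and Col4a6, with 119, 114 and 47 counts over all 16 libraries. A gene was counted as raised or lowered at a Benjamini-Hochberg adjusted p under 0.01 in edgeR's quasi-likelihood test, adjusted over all tested genes. By this rule 10 of 41 collagen genes (24.4%) changed in at least 1 of the 4 comparisons between conditions and 31 did not. Over all tested genes the share was 41.4%.

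Of these genes, 4 changed with butyrate both without and with IL-1β: Col9a2, Col20a1 and Col4a5 were raised and Col6a3 was lowered. Col4a5 passed the filter on low counts only through the libraries with butyrate. The bases just upstream of each are shown because these genes responded in both settings. They come from the RefSeq promoter windows of GRCm38.p6 (250 bases before to 50 after the start), end before the first base of the gene model used here and lie in no exon of a protein-coding transcript. The capitals in Col4a5 mark CCAAT, the only motif of those searched that falls in a printed stretch.

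Col9a2, chr4:121039316-121039384, plus strand: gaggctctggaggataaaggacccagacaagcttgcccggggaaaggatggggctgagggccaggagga
Col20a1, chr2:180986285-180986534, plus strand: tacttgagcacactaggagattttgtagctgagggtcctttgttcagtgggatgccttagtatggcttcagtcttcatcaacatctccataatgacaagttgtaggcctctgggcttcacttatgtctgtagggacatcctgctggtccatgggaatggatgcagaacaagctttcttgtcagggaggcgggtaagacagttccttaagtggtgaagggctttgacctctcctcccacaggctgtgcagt
Col4a5, chrX:141475169-141475384, plus strand: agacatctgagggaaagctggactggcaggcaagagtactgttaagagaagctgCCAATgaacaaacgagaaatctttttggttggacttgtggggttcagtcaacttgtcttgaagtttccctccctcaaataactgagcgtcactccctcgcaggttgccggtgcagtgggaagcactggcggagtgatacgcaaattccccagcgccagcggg
Col6a3, chr1:90843972-90844221, minus strand: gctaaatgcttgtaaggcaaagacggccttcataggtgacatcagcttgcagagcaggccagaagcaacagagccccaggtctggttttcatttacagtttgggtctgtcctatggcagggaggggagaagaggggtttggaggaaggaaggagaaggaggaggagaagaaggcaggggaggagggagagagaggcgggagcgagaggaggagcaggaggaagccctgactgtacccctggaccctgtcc

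The windows were searched on both strands for GGGCGG (the GC box), for CCAAT as the box of that name, for the TATA box (TATAAA) and for the NF-kappaB motif. Over the whole 300 bases, Col9a2 held 3 GC boxes and 2 NF-kappaB motifs, Col4a5 held 1 GC box and 1 CCAAT, and neither Col20a1 nor Col6a3 held any of the 4. Windows were at hand for 35 collagen genes (38 windows), of which 60.5% held a GC box against 35.7% of all 32851 windows, and 18.4% an NF-kappaB motif against 8.46%. CCAAT was in 34.2% against 37.4% and the TATA box in 13.2% against 13.6%. The median GC content was 59.8% in the collagen windows and 52.7% in all, and these shares describe letters and not bound sites.

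In control islets, the level was held by a few genes. By CPM per kb, Col6a6 was first at 13.96, Col27a1 second at 4.39 and Col4a1 next at 3.71, before Col11a2 at 2.99, Col16a1 at 2.53 and Col9a2 at 1.61. Col6a6 alone gave 38.6% of all collagen CPM in control, Col27a1 gave 17.2% and Col4a1 8.33%. A mean under 1 CPM was found for 19 of the 44 genes, 1 to 10 CPM for 19 and 10 CPM or more for 6. The genes of collagen I and III, the bulk of connective tissue collagen, were low, with mean CPM per kb in control of 0.393 for Col1a1, 0.300 for Col1a2 and 0.202 for Col3a1.

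**Figure D1:**
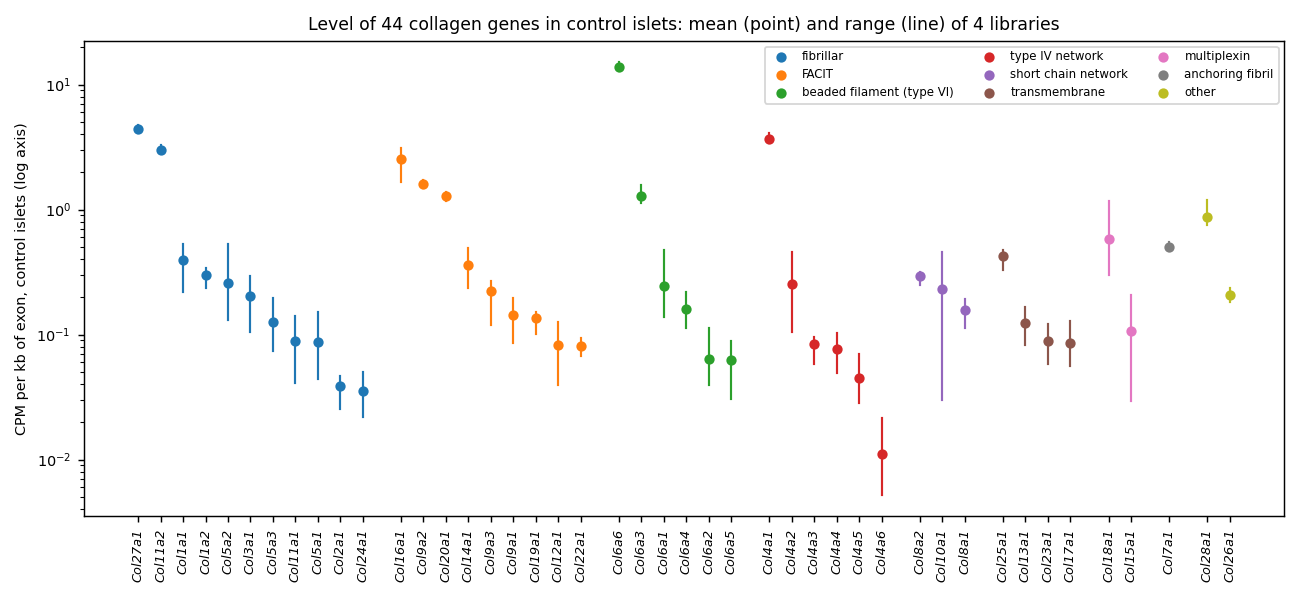
Mean level (point) and range over 4 control libraries (line) of all 44 collagen genes, as CPM per kb of exon on a log axis, grouped by class. Col6a6 stands at 13.96, above every other member, and most genes of each class lie under 1.

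With IL-1β against control, 2 collagen genes were raised (Col11a2 and Col14a1) and 2 were lowered (Col4a1 and Col6a3). Over all tested genes 11.2% were raised, 6.59% were lowered and 17.8% changed in either direction. The median log2 fold change was -0.14 over the 41 collagen genes and -0.03 over all tested genes, and 15 of 41 were above 0. All 5 tested type IV genes and all 3 short chain network genes had a fold change below 0, although only Col4a1 among them passed the test.

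When butyrate was added to IL-1β, 3 genes were raised (Col9a2, Col20a1 and Col4a5) and Col6a3 was lowered. Of all tested genes 8.41% were raised, 11.1% were lowered and 19.5% changed. The median log2 fold change was 0.20 for collagen genes and 0.01 for all, with 31 of 41 above 0. With butyrate alone, the same 3 genes were raised, and Col6a3 and Col28a1 were lowered, against 8.53% raised, 11.4% lowered and 19.9% changed over all genes. Here the medians were 0.14 and 0.01, with 26 of 41 above 0. The 41 include Col4a5, Col6a2 and Col23a1, which passed the filter only when libraries with butyrate were counted. These counts above 0 are thus no support for a butyrate response.

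With IL-1β and butyrate against control, 5 genes were raised (Col9a2, Col4a5, Col11a2, Col25a1 and Col20a1) and 3 were lowered (Col6a3, Col6a6 and Col4a1). Over all genes 15.8% were raised, 14.8% were lowered and 30.6% changed. The medians were 0.12 for collagen genes and -0.0027 for all genes, with 24 of 41 above 0. These comparisons share control or IL-1β libraries, so their values are set side by side and not as separate evidence.

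**Figure D2:**
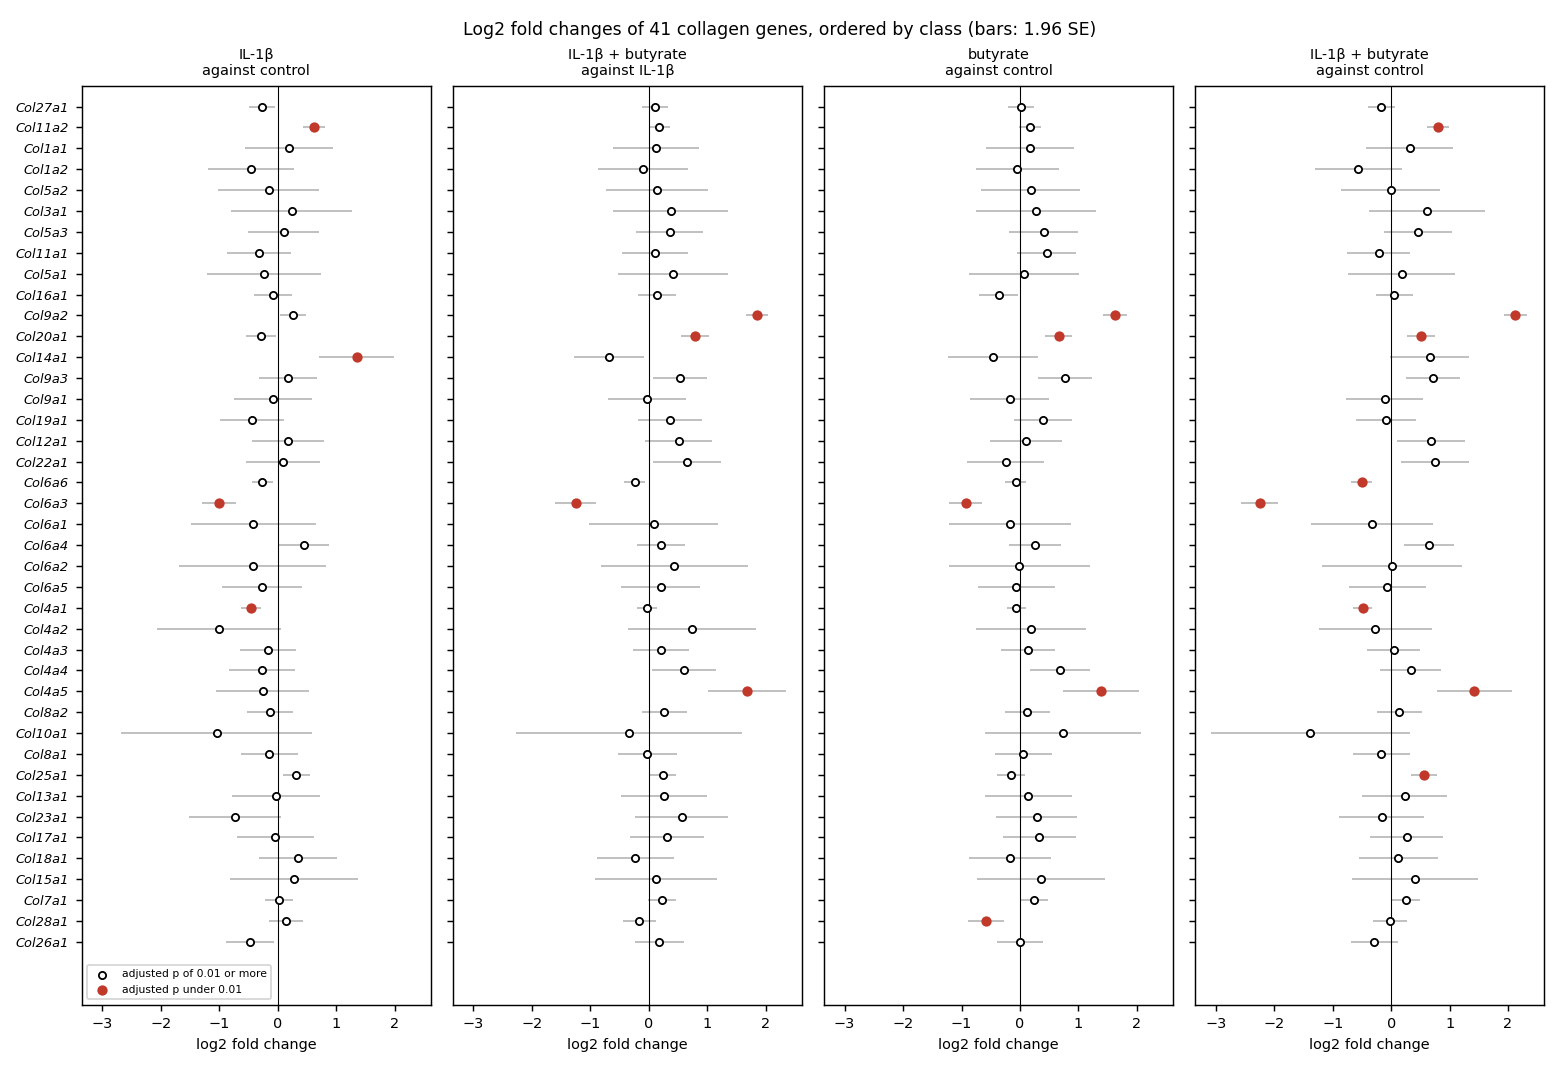
Log2 fold change of the 41 tested collagen genes in 4 comparisons, ordered by class, with the 95% interval as a bar and filled points for genes past the threshold. Col9a2, Col4a5 and Col20a1 lie to the right and Col6a3 to the left in the comparisons that add butyrate.

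Among the FACIT genes, the largest response was that of Col9a2 (ENSMUSG00000028626, chr4:121039385-121055322, plus strand), which encodes the α2 chain of collagen IX, a collagen best known from cartilage. Its CPM was 4.67, 4.59, 5.35 and 5.35 in control replicates 1 to 4 and 4.55, 6.38, 7.31 and 5.81 with IL-1β. It was 20.8, 20.2, 22.2 and 23.9 with IL-1β and butyrate and 16.3, 14.04, 15.8 and 15.5 with butyrate. Each library with butyrate lay above each library without it. The log2 fold change was 1.86 (SE 0.10, adjusted p = 9.9e-14) when butyrate was added to IL-1β, a 3.62-fold rise, and 1.63 (SE 0.10, adjusted p = 3.1e-12) with butyrate alone, a 3.08-fold rise. With IL-1β alone it was 0.27 (SE 0.11, adjusted p = 0.087). The other chains of collagen IX were lower, and Col9a2 stood above Col9a3 per kb by a ratio of means of 7.25 in control, 7.74 with IL-1β, 19.3 with both and 13.1 with butyrate. Col9a3 had 0.856 ± 0.267 CPM (SD, n = 4) in control and 1.46 ± 0.181 with butyrate, a log2 fold change of 0.77 (SE 0.24, adjusted p = 0.015) that did not pass the test. Of its exon bases, 6.07% overlap a gene on the other strand. Col9a1 had a log2 fold change of -0.18 (SE 0.34, adjusted p = 0.75) with butyrate and -0.03 (SE 0.34, adjusted p = 0.96) in the presence of IL-1β.

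Col20a1 (ENSMUSG00000016356, chr2:180986535-181018363, plus strand) encodes the chain of collagen XX. Its CPM was 7.0, 6.05, 7.07 and 6.46 in control and 3.88, 5.06, 6.17 and 6.42 with IL-1β. It was 8.61, 7.98, 10.7 and 10.5 with IL-1β and butyrate and 9.94, 11.2, 9.56 and 11.2 with butyrate. Both butyrate conditions lay above both conditions without it. Butyrate gave a log2 fold change of 0.80 (SE 0.12, adjusted p = 1.9e-05) in the presence of IL-1β and 0.66 (SE 0.12, adjusted p = 0.00011) without it. The strand setting of the counting is not stated, and 1.54% of its exon bases lie in a non-coding gene on the same strand.

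Col14a1 (ENSMUSG00000022371, chr15:55307750-55520803, plus strand), a collagen of fibril surfaces in dense connective tissue, was raised by IL-1β. Its CPM was 2.10, 1.67, 2.87 and 3.47 in control and 4.39, 4.97, 7.36 and 8.73 with IL-1β. It was 2.40, 2.80, 4.90 and 6.07 with IL-1β and butyrate and 1.41, 2.13, 1.36 and 2.32 with butyrate. The control and IL-1β libraries did not overlap, whereas the libraries with both agents spanned from the control range to the IL-1β range. The log2 fold change was 1.35 (SE 0.33, adjusted p = 0.0068) with IL-1β, and -0.69 (SE 0.31, adjusted p = 0.11) for butyrate in its presence. Each library with both agents lay below the IL-1β library of the same number. With the replicate number as a block in edgeR, the butyrate change had an adjusted p of 6.1e-05, past the threshold. Both agents against control had 0.00033 with the block and 0.15 without it. The labels do not say whether the numbers mark shared experiments. The call with IL-1β was lost without control replicate 1, 2 or 3 and without IL-1β replicate 3 or 4, with adjusted p up to 0.025, and without the filter on low counts. Beside it, the summed fibroblast and stellate markers were 7.05 to 13.4 CPM in control and 3.52 to 7.41 with IL-1β, and their part was not tested.

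The other FACIT genes did not pass the test in any comparison. Col16a1, a minor collagen of cartilage and skin, had the highest level of the class per kb in control, with 17.1 ± 4.37 CPM (SD, n = 4), 16.1 ± 1.33 with IL-1β, 17.8 ± 1.37 with both and 13.3 ± 2.48 with butyrate. Col22a1, a collagen of tissue junctions, had a log2 fold change of 0.75 (SE 0.30, adjusted p = 0.045) with both against control, and Col12a1, a fibril coat of tendon, had 0.69 (SE 0.30, adjusted p = 0.071). Col19a1 had mean levels of 0.684 ± 0.170 CPM with IL-1β and 1.23 ± 0.406 with butyrate. The CPM summed over the 9 FACIT genes was 28.7 to 41.8 in control, 30.2 to 43.3 with IL-1β, 53.5 to 66.3 with both and 42.9 to 49.5 with butyrate. The libraries with both agents thus lay above all others in this sum. It includes Col9a2, with a mean of 4.99 CPM in control, 6.01 with IL-1β, 21.8 with both and 15.4 with butyrate. The sum therefore does not show a rise of the other FACIT genes.

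Of the type VI genes, Col6a3 (ENSMUSG00000048126, chr1:90765923-90843971, minus strand) encodes the α3 chain of collagen VI, the long chain whose end is cleaved off as endotrophin. Its CPM was 18.8, 15.7, 13.5 and 13.9 in control and 9.72, 8.71, 6.79 and 5.85 with IL-1β. It was 3.37, 2.504, 3.85 and 3.23 with IL-1β and butyrate and 9.69, 8.31, 6.74 and 7.66 with butyrate. Control was highest, the libraries with 1 agent overlapped each other below it, and the libraries with both agents were lowest, with no overlap to either. The log2 fold change was -1.01 (SE 0.15, adjusted p = 3.1e-05) with IL-1β, -0.93 (SE 0.15, adjusted p = 7.3e-05) with butyrate and -2.25 (SE 0.17, adjusted p = 1.8e-09) with both, which is 4.76-fold lower than control. Adding butyrate to IL-1β gave -1.25 (SE 0.18, adjusted p = 2.9e-05). Col6a3 was the only collagen gene called in all 4 comparisons, and no alternative fit lost any of these calls.

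Col6a6 (ENSMUSG00000043719, chr9:105687809-105828160, minus strand) encodes the α6 chain, which can take the place of the α3 chain in collagen VI. Its CPM was 138, 119, 131 and 124 in control and 103, 87.0, 115 and 120.3 with IL-1β. It was 93.9, 84.2, 94.5 and 88.0 with IL-1β and butyrate and 129, 135, 108 and 114 with butyrate. Only the comparison of both agents with control was past the threshold, at -0.50 (SE 0.09, adjusted p = 0.00023), with every library of the combination under every control library. Fold changes on this scale were -0.26 (SE 0.09, adjusted p = 0.039) with IL-1β and -0.24 (SE 0.09, adjusted p = 0.056) with butyrate in its presence, neither of them called. Per kb of exon, the mean of Col6a6 was 10.8 times that of Col6a3 in control, 17.9 times with IL-1β, 36.3 times with both and 19.6 times with butyrate.

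The chains that make up the core of collagen VI were far lower. Col6a1 had 0.607 to 2.10 CPM in control libraries and 0.297 to 1.80 with both agents, and Col6a2 had 0.327 to 0.942 and 0.203 to 1.14. Col6a6 stood above Col6a1 per kb by a ratio of means of 57.2 in control. Col6a4 and Col6a5, which lie beside Col6a6 on chromosome 9, had log2 fold changes of 0.65 (SE 0.22, adjusted p = 0.017) and -0.06 (SE 0.33, adjusted p = 0.91) with both agents against control. The CPM summed over the type VI genes was 137 to 160.3 in control, 99.4 to 130.2 with IL-1β, 89.5 to 105 with both and 118 to 146 with butyrate.

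Of the type IV genes, Col4a1 (ENSMUSG00000031502, chr8:11198423-11312826, minus strand) encodes the α1 chain of the common basement membrane network. Its CPM was 25.4, 26.8, 28.0 and 30.5 in control and 17.0, 20.01, 22.1 and 21.5 with IL-1β. It was 17.8, 17.5, 23.4 and 20.4 with IL-1β and butyrate and 26.8, 25.8, 25.97 and 27.6 with butyrate. Both conditions with IL-1β lay below both conditions without it. The log2 fold change was -0.46 (SE 0.08, adjusted p = 0.00018) with IL-1β and -0.49 (SE 0.08, adjusted p = 4.2e-05) with both agents, and butyrate added to IL-1β gave -0.03 (SE 0.09, adjusted p = 0.82).

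Col4a2, whose product winds together with that of Col4a1, starts head to head with it, with 22 bases shared by the gene models. It had 0.700 to 3.04 CPM in control and 0.569 to 1.35 with IL-1β. The libraries overlapped, and the log2 fold change was -1.003 (SE 0.54, adjusted p = 0.21). Per kb, Col4a1 exceeded Col4a2 by a ratio of means of 14.6 in control, 21.2 with IL-1β, 12.4 with both and 12.3 with butyrate. Among fibroblast and stellate markers, 3 of 9 tested were lowered with IL-1β and 0 were raised, beside 6.59% and 11.2% of all tested genes. The part of these cells in the fall of Col4a1 and Col6a3 was not tested.

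**Figure D3:**
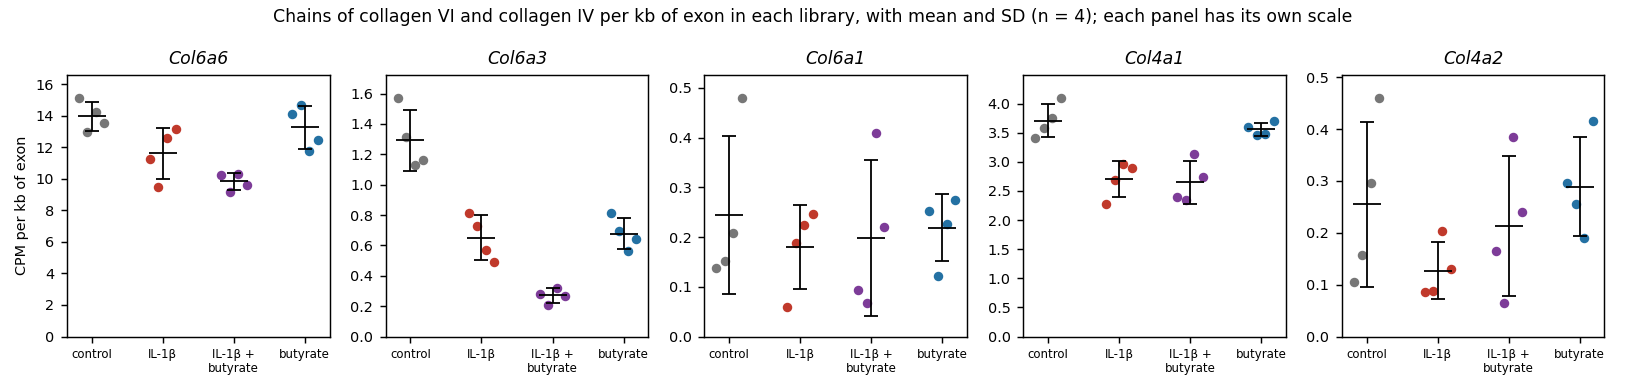
CPM per kb of exon in each library (points) with mean and SD (n = 4) for 3 chains of collagen VI and 2 of collagen IV, each panel with its own axis from 0. Col6a3 is lowest with both agents, Col4a1 is lower in both conditions with IL-1β, and Col6a1 and Col4a2 scatter widely at low levels.

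Col4a5 (ENSMUSG00000031274, chrX:141475385-141689234, plus strand) encodes the α5 chain found in kidney and smooth muscle basement membranes and was scarce in islets, with 3 to 23 counts per library. Its CPM was 0.467, 0.250, 0.191 and 0.300 in control and 0.207, 0.146, 0.207 and 0.397 with IL-1β. It was 0.934, 0.806, 0.788 and 0.722 with IL-1β and butyrate and 1.00, 0.755, 0.888 and 0.559 with butyrate. Every library with butyrate lay above every library without it. The filter asked for 0.451 CPM by library size in at least 4 libraries, which 8 of the 8 libraries with butyrate reached and 1 of the 8 without it. The gene was thus tested only because it was high with butyrate, so its calls are no support for a butyrate response of the collagen genes. On the log2 scale the change was 1.68 (SE 0.34, adjusted p = 0.00044) in the presence of IL-1β and 1.38 (SE 0.33, adjusted p = 0.0022) without it. The call without IL-1β was lost without control replicate 2 or 3 or butyrate replicate 1, with adjusted p up to 0.012, and both calls held in a fit without the filter. Col4a3 and Col4a4, chains of the same kidney network, had log2 fold changes of 0.14 (SE 0.24, adjusted p = 0.72) and 0.68 (SE 0.26, adjusted p = 0.051) with butyrate. Col4a6, which starts 1308 bases from Col4a5 on the other strand, had 1 to 8 counts per library.

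Among the fibrillar genes, Col11a2 (ENSMUSG00000024330, chr17:34039437-34066685, plus strand) encodes the α2 chain of collagen XI. Its CPM was 22.7, 19.4, 19.9 and 20.2 in control and 30.9, 27.8, 34.0 and 33.6 with IL-1β. It was 38.9, 29.6, 36.1 and 38.9 with IL-1β and butyrate and 26.9, 23.3, 22.7 and 19.7 with butyrate. The libraries with IL-1β, with or without butyrate, lay above those without it. IL-1β gave a log2 fold change of 0.62 (SE 0.10, adjusted p = 4.6e-05), a 1.54-fold rise, and both agents gave 0.80 (SE 0.09, adjusted p = 8.8e-07). Butyrate added to IL-1β gave 0.18 (SE 0.09, adjusted p = 0.15). Its partner Col11a1 had only 0.526 to 1.79 CPM in control and a log2 fold change of -0.32 (SE 0.28, adjusted p = 0.45) with IL-1β.

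Col27a1 (ENSMUSG00000045672, chr4:63214004-63334991, plus strand), a fibrillar collagen of growing cartilage, was second in level among all collagens. Its CPM was 54.6, 53.0, 59.2 and 61.9 in control and 44.4, 46.5, 43.7 and 53.9 with IL-1β. It was 47.9, 45.1, 47.7 and 63.7 with IL-1β and butyrate and 52.8, 50.2, 65.1 and 63.3 with butyrate. The conditions overlapped, and no comparison passed the test, the log2 fold change with IL-1β being -0.27 (SE 0.11, adjusted p = 0.10). The fibroblast collagens Col1a1, Col1a2 and Col3a1 had log2 fold changes with IL-1β of 0.19, -0.46 and 0.24, with SE of 0.38, 0.38 and 0.53. Their intervals were -0.56 to 0.95, -1.19 to 0.28 and -0.79 to 1.28, and none of them passed the test. Col5a1, Col5a2, Col5a3 and Col11a1 did not pass the test either, with mean CPM in control from 0.739 to 2.46.

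Col25a1 (ENSMUSG00000058897, chr3:130131501-130599877, plus strand), a transmembrane collagen of neurons and muscle, had 6.11, 4.25, 5.54 and 6.08 CPM in control and 7.03, 6.67, 6.53 and 7.04 with IL-1β. It had 9.38, 7.13, 7.45 and 8.38 with IL-1β and butyrate and 5.78, 5.06, 4.65 and 4.30 with butyrate. The IL-1β libraries lay above control, and those with both agents above IL-1β. The log2 fold change passed the test with both agents against control, at 0.56 (SE 0.11, adjusted p = 0.00023), and not with IL-1β alone, at 0.32 (SE 0.12, adjusted p = 0.047). Butyrate added to IL-1β gave 0.24 (SE 0.11, adjusted p = 0.10), which did not pass either. The other transmembrane genes, Col13a1, Col17a1 and Col23a1, were under 1 CPM in each library and were not called.

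Col28a1 (ENSMUSG00000068794, chr6:7997808-8192617, minus strand), a collagen of peripheral nerve and Schwann cells, was the only gene called with butyrate alone and not in the presence of IL-1β. Its CPM was 3.69, 3.79, 3.92 and 5.86 in control and 4.91, 4.14, 4.77 and 5.23 with IL-1β. It was 3.94, 3.40, 5.12 and 4.67 with IL-1β and butyrate and 2.81, 2.53, 2.93 and 3.23 with butyrate. The butyrate libraries lay below all others, and control replicate 4 stood above its group. Butyrate gave a log2 fold change of -0.59 (SE 0.16, adjusted p = 0.0053) alone and -0.16 (SE 0.15, adjusted p = 0.44) beside IL-1β. The call was lost without control replicate 4 (adjusted p = 0.048) and without butyrate replicate 1, 2 or 3, and also with upper-quartile scaling and with limma-voom. The Schwann cell markers had a summed level of 11.9 to 14.6 CPM in control and 12.7 to 15.5 with butyrate. The part of these cells in the level of Col28a1 was not tested.

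**Figure D4:**
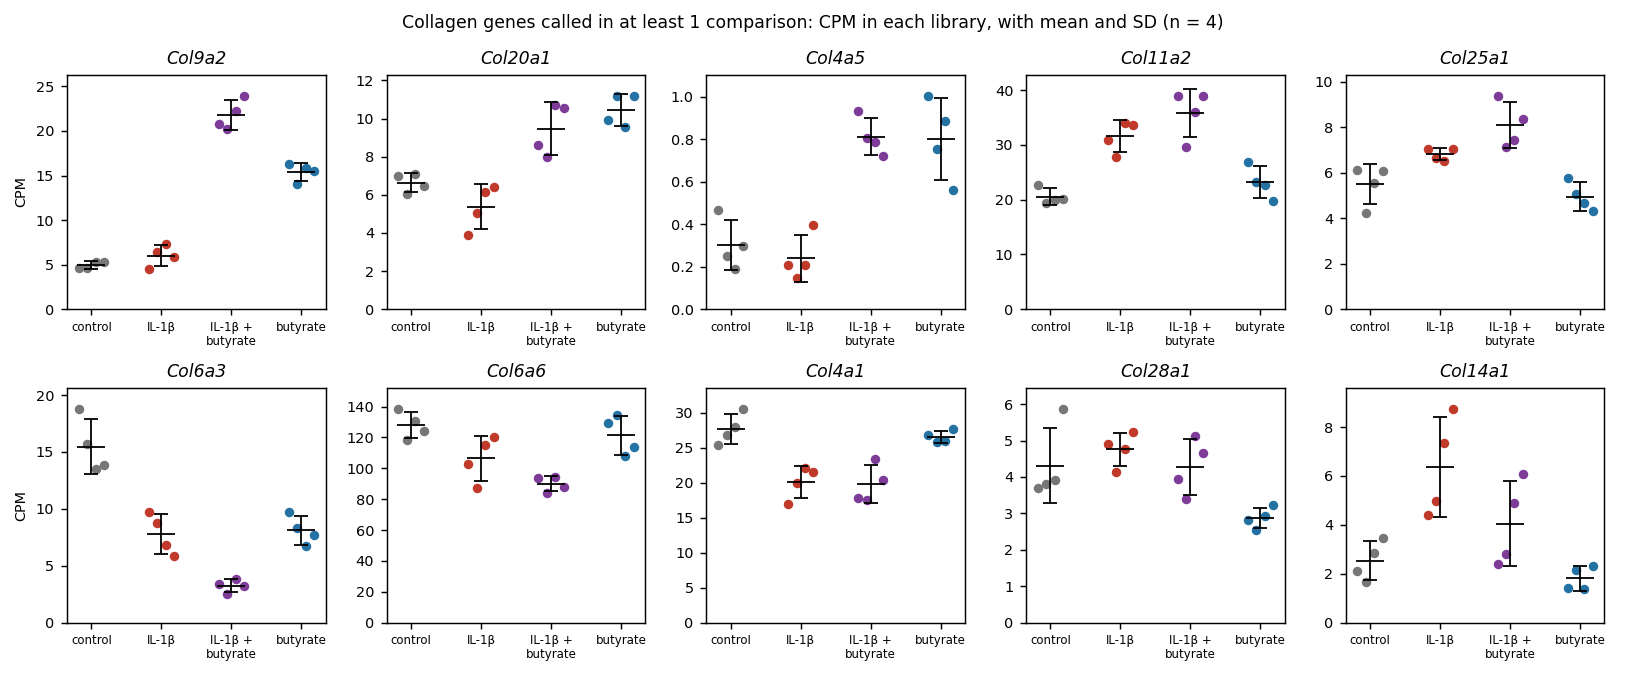
CPM of the 10 collagen genes called in at least 1 comparison in each library (points), with mean and SD (n = 4), each axis from 0. The butyrate conditions are high for Col9a2, Col20a1 and Col4a5, the IL-1β conditions are high for Col11a2 and low for Col4a1, and Col6a3 is lowest with both agents.

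The remaining genes were not called. Col7a1, the anchoring fibril gene, had 5.18 ± 0.411 CPM (SD, n = 4) in control and 6.17 ± 0.729 with both. Of the multiplexins, Col18a1, the source of endostatin, had 2.10 to 8.22 CPM in control and Col15a1 had 0.187 to 1.33. Col10a1, a collagen of hypertrophic cartilage, spanned 0.0933 to 1.43 CPM in control and 0 to 0.770 with both agents, so that its log2 fold change of -1.38 had an interval of -3.08 to 0.32. Col8a1 and Col8a2, network collagens of vessel walls, and Col26a1 stayed at group means of 1.12 to 1.68 CPM.

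Butyrate was compared with and without the cytokine on separate libraries. Over the 41 genes the log2 fold changes had a Pearson r of 0.79 and a Spearman rho of 0.57, and 0.64 and 0.50 without Col9a2 and Col6a3. Both sets kept Col4a5, Col6a2 and Col23a1, which passed the filter only when libraries with butyrate were counted. These values, and the shares of equal sign below, are thus no support for like effects. Over all 18587 tested genes the values were 0.74 and 0.69. The sign was the same for 32 of 41 collagen genes (78.0%) and for 78.8% of all genes, a description in which genes share libraries. When the difference of the effects was tested, 0 collagen genes passed in edgeR, DESeq2 or limma-voom, against 0.0968% of all genes. The lowest adjusted p of the 41 in edgeR was 0.57, for Col25a1, with a difference of 0.40 (SE 0.17). The interval of the difference was -0.05 to 0.51 for Col9a2, -0.20 to 0.47 for Col20a1, -0.67 to 1.27 for Col4a5, -0.77 to 0.14 for Col6a3 and 0.0043 to 0.85 for Col28a1, so that like responses were not shown. The difference for Col28a1 had an unadjusted p of 0.058 and an adjusted p of 0.70 in edgeR.

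**Figure D5:**
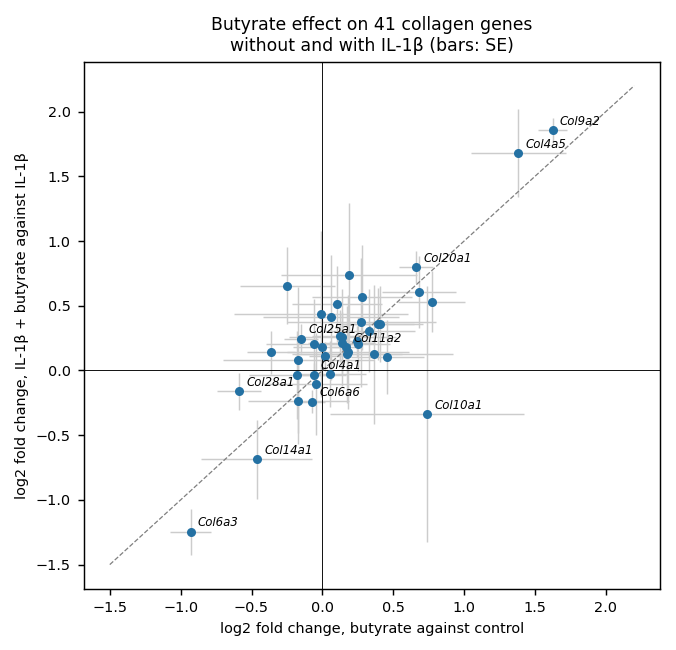
Log2 fold change of 41 collagen genes for butyrate added to IL-1β (vertical) against that for butyrate alone (horizontal), with SE bars and a dashed line of equal values. Col9a2 and Col4a5 lie at the upper right and Col6a3 at the lower left, near the line. Col4a5, Col6a2 and Col23a1 were tested only because libraries with butyrate counted for the filter.

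Of the 28 tested genes of collagen synthesis and processing (33 listed), 3 were raised and 4 lowered with IL-1β, where 11.2% of all tested genes were raised and 6.59% lowered. When butyrate was added to IL-1β 5 were raised and 2 lowered, beside 8.41% and 11.1% of all. With butyrate alone 2 were raised and 1 was lowered, beside 8.53% and 11.4%, and with both agents against control 6 were raised and 5 lowered, beside 15.8% and 14.8%. The median log2 fold changes were -0.05, 0.06, 0.11 and 0.10 in this order, beside -0.03, 0.01, 0.01 and -0.0027 over all tested genes. Loxl3, a cross-linking oxidase, had a log2 fold change of 1.34 (SE 0.22, adjusted p = 3.6e-05) in the presence of IL-1β and 1.11 (SE 0.23, adjusted p = 0.00049) without it. P3h1, a prolyl hydroxylase, fell by 0.64 on the log2 scale with butyrate (SE 0.05, adjusted p = 7.5e-10). Colgalt2, which adds sugar to collagen, fell by 0.92 with IL-1β (SE 0.17, adjusted p = 0.00017). The collagen chaperone gene Serpinh1 had log2 fold changes of -0.08, 0.20 and 0.15 in the first 3 of these comparisons, P4ha1 had 0.25, -0.03 and 0.14 and Plod2 had -0.21, -0.30 and -0.48, none of them called. Lox was not tested.

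Of 9 tested collagen receptors (10 listed), 4 were raised with IL-1β (11.2% of all tested genes) and 0 lowered (6.59%), 1 was lowered in each butyrate comparison (11.1% and 11.4% of all), and 3 were raised with both agents against control (15.8%). Itga2, a collagen-binding integrin chain, went from 19.6 CPM in control to 64.4 with IL-1β, a log2 fold change of 1.72 (SE 0.09, adjusted p = 1.3e-11). Lair1, an inhibitory collagen receptor of immune cells, had 1.53 (SE 0.28, adjusted p = 0.00014). Beside it, 6 of 7 macrophage markers were raised and 1 lowered with IL-1β, with a median log2 fold change of 2.19. Their summed level was 127 to 140.3 CPM in control and 169.8 to 206 with IL-1β, and their part in these values was not tested. Of 9 tested matrix partners (12 listed), 1 was raised and 1 lowered with IL-1β (11.2% and 6.59% of all tested genes). In each butyrate comparison 3 were raised (8.41% and 8.53% of all) and 0 lowered (11.1% and 11.4%). With both agents against control 2 were raised (15.8% of all). The median log2 fold changes in the same order were 0.19, 0.09, -0.04 and 0.13 for the receptors and 0.06, 0.35, 0.50 and 0.33 for the partners. Hspg2, the core of the basement membrane proteoglycan perlecan, had log2 fold changes of 1.61 (SE 0.24, adjusted p = 2.5e-05) with and 1.73 (SE 0.24, adjusted p = 1.1e-05) without IL-1β, and Pxdn, which cross-links collagen IV, had 1.06 (SE 0.08, adjusted p = 6.6e-11) with IL-1β. The endothelial markers had a summed level of 11.6 to 12.97 CPM in control, 10.6 to 15.03 with IL-1β, 13.9 to 18.7 with both and 13.99 to 16.1 with butyrate, and their part in the levels of Hspg2 and the type IV genes was not tested.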

How the data were processed

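RNA was measured in 16 libraries from mouse islets, 4 for each of control, IL-1β, IL-1β with butyrate, and butyrate. The authors mapped single-end reads to GRCm38 with STAR 2.5.3a, and the deposited values are whole-number counts of reads per gene, not normalized. The counting tool, annotation release and strand setting are not given in the sources used here, and 10560 of 52636 genes had no count. Symbols, positions and exon lengths came from GENCODE M21 (52489 identifiers found), and promoter windows from RefSeq GRCm38.p6.

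Low-count genes were dropped with filterByExpr of edgeR 4.0.16 (R 4.3.3), libraries were scaled by TMM, and the tool fitted 1 robust quasi-likelihood model to all 16 libraries without a replicate block. The threshold was 0.01 on p adjusted over 18587 genes after Benjamini and Hochberg. The SE is the size of the log2 fold change over the root of F, and intervals are 1.96 SE wide on each side. Such intervals are narrower than the test implies. That of the Col28a1 difference was 0.0043 to 0.85 at an unadjusted p of 0.058 in edgeR. The pipeline was tested on simulated data. Library totals were 18635943 to 25955943 counts, and counts of a few per library limit the precision of the scarce genes. Intervals cover the spread between these libraries, and the sources name no molecular identifiers. The replicates of a condition are separate samples by their labels.

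The members, classes and lists were chosen with earlier results of these data known. Values by library are given for genes called in at least 1 comparison and for the 3 with the highest control level per kb. In the other lists, up to 3 called genes with the largest change per comparison could be named, and Serpinh1, P4ha1, Lox and Plod2 in any case. The 4 printed promoter stretches were chosen after the calls were seen. Proteins were not analysed here. Alternatives were other scalings, filters, thresholds and tools (DESeq2 1.42.0, limma-voom 3.58.1), a replicate block, fits on only the conditions compared, and leaving out each library.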

Additional observations from a re-analysis of the deposited data

Results flagged for a closer look

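A library was set apart when its gap to the nearest of the other 3 libraries of its condition, over the range of the 4, exceeded Dixon's critical value for 4 values. Of 176 pairs of a collagen gene and a condition, 6 met this, where chance alone would give about 8.8 at 1 in 20. Col28a1 in control replicate 4 had 5.86 CPM, against 3.69 to 3.92 in the others, and the call of Col28a1 with butyrate was lost without this library. Col27a1 had 63.7 CPM in IL-1β with butyrate replicate 4, against 45.1 to 47.9. Col13a1 had 0.963 CPM in the same library, against 0.569 to 0.609. Col17a1 had 0.774 CPM in butyrate replicate 4, against 0.603 to 0.627. Low values were those of Col9a3 in control replicate 2, with 0.459 CPM against 0.956 to 1.03, and of Col15a1 in butyrate replicate 2, with 0.444 CPM against 0.993 to 1.05. Apart from Col27a1 and Col28a1, these values rest on 10 to 20 counts.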

How the results depend on the processing

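No call reversed its sign in any alternative run. Without a filter on low counts, 1 collagen gene was raised with IL-1β and 2 were lowered with butyrate in its presence. With upper-quartile scaling or limma-voom, 1 was lowered with butyrate alone. At an adjusted p under 0.05, 8 were raised with both agents against control. The replicate number, used as a replicate block, gave 2 lowered by butyrate beside IL-1β (Col6a3 and Col14a1) and 9 raised with both agents against control. Under the block Col14a1 had an adjusted p of 6.1e-05 for butyrate added to IL-1β and of 0.00033 for both agents against control, neither a call without the block. For the threshold of 0.05 and for the block, calls over all genes were not counted. These numbers are thus no result about collagen genes. Deviations of same-numbered libraries correlated at 0.053 to 0.40 (24 pairs, median 0.12), with 17 above 0.1. Those of libraries with different numbers correlated at -0.29 to 0.17 (72 pairs, median -0.04), with 6 above 0.1. Of 16 libraries, 14 correlated best with their own number, so the data hold a sign of shared numbers. The labels name no shared batch, animal or day for a number, and the main calls were made without the block. Leaving out 1 library gave 1 to 3 raised and 2 lowered with IL-1β, 3 raised and 1 to 2 lowered with butyrate in its presence, 2 to 3 raised and 1 to 3 lowered with butyrate, and 5 to 6 raised and 3 lowered with both. Calls were lost in 6 of 25 alternatives for Col14a1 with IL-1β, in 6 of 25 for Col28a1 with butyrate (adjusted p 0.00032 to 0.048) and in 3 of 23 for Col4a5 with butyrate. Over all genes, upper-quartile scaling called 1914 raised and 1800 lowered with IL-1β in place of 2087 and 1224, and 2137 and 1566 with butyrate in its presence in place of 1563 and 2066, and 2207 and 1566 with butyrate alone in place of 1585 and 2112. Library size alone called 2798 and 708 with IL-1β, and 3805 and 1884 with both in place of 2937 and 2751. The difference of the butyrate effects could not be fitted on 2 conditions. The cause of these shifts was not tested.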
